A study of Mus musculus with 32 samples.

Results

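The 10 neuronal genes described here are Tubb3, Stmn2, Stmn3, Map2, Map1b, Dcx, Elavl3, Elavl4, Gap43 and Crmp1, which were chosen by name as markers of the neuronal cytoskeleton and of neuronal maturation, and all 10 were found among the 23154 genes of the series. Single cells were taken from 8 organs of 7 C57BL/6J mouse embryos, 3 at embryonic day (E) 9.5, 2 at E10.5 and 2 at E11.5, and 1805 of 1916 cells entered the comparisons. No gene was deleted and no agent was given in any group per the labels, so the groups differ in organ, stage and embryo. E9.5 embryo 2 was labelled female and the others male. The study sorted the cells into 4 major groups by clustering, and the 10 genes were followed mainly in the 367 brain cells of its neuronal group, 184 from the forebrain and 183 from the hindbrain. In the brain, both E9.5 embryos were read on the HiSeq 2500 and all 4 later embryos on the HiSeq 4000, so the step from E9.5 to later days and the change of sequencer cannot be told apart there. Median depth ran from 95277 to 1115880 UMIs (unique molecular identifiers, each marking 1 captured transcript) per cell across the 12 brain sets, where a set is the neuronal cells of 1 organ of 1 embryo. The smallest set, forebrain E10.5 embryo 1, held 9 cells and the others 25 to 45.

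Newborn neurons rebuild their cytoskeleton as they leave the cell cycle and grow an axon and dendrites. Tubb3 encodes the neuronal β-tubulin of that microtubule network, Map2, Map1b and Dcx (doublecortin) encode proteins that bind and stabilise microtubules, and Stmn2 and Stmn3 encode neuronal stathmins, which bind tubulin and favour disassembly. Elavl3 and Elavl4 (HuC and HuD) are neuronal RNA-binding proteins that stabilise mRNAs of differentiating neurons, Gap43 is a growth cone protein, and Crmp1 belongs to the collapsin response mediators that relay guidance signals to the growth cone. At midgestation the neural tube holds dividing progenitors beside the earliest neurons, and these genes are used to tell the latter from the former.

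Expression was given as TPM by the authors, here the UMI count of a gene scaled to 1000000 UMIs in its cell, and each level is the mean over cells of log2(TPM/10 + 1) unless another scale is named. A gene was called expressed in a cell at 1 or more on this scale. Because 1 end of each transcript was tagged, the values do not scale with transcript length. The neuronal group was described with markers other than the 10 genes: all 6 pan-neuronal markers (Rbfox3, Syp, Snap25, Nefl, Nefm and Syt1) and all 5 neural progenitor markers were expressed in at least 5% of the 367 cells. The progenitor markers had the higher mean, 2.73 against 1.21, so both kinds of marker were present in the group. Of 7 erythroid markers 5 also reached 5% of these cells, with a mean of 1.83, so this bar alone does not give cell identity.

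For 8 of the 10 genes RefSeq (GRCm38.p6) gave at least 1 promoter window, 13 windows in all, and the 250 bases before the start are shown for those of Stmn3, Elavl3, Elavl4 and Map1b because they hold an E-box of the kind that proneural basic helix-loop-helix factors bind. Capitals mark CAGCTG or CAGATG, which were searched on both strands together with CATATG.
Stmn3, chr2:181314501-181314750, minus strand: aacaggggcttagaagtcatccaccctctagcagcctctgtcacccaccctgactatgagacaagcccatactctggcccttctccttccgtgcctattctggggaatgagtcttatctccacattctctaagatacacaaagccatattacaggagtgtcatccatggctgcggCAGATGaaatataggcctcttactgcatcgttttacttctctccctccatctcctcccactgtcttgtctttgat
Elavl3, chr9:22052024-22052273, minus strand: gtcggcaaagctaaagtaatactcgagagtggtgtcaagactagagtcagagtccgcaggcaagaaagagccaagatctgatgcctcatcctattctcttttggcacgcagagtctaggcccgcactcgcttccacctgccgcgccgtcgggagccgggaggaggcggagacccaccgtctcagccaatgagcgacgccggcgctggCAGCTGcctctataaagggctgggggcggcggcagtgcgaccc
Elavl4, chr4:110287528-110287777, minus strand: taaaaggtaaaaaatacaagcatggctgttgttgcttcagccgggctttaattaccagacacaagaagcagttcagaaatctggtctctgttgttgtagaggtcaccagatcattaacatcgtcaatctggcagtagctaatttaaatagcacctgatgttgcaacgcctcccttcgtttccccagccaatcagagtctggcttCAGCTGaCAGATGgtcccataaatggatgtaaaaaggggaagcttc
Map1b, chr13:99516603-99516852, minus strand: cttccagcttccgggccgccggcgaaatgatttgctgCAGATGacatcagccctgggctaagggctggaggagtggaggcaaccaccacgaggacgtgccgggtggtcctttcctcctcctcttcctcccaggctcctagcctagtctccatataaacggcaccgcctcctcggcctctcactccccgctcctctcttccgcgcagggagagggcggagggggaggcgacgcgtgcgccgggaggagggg
The E-box began 75 bases before the start in Stmn3, 43 in Elavl3 and 213 in Map1b. The Elavl4 window shown held 2, CAGCTG at 46 and CAGATG at 39 bases before a start that lies inside the gene. The Elavl4 window beside the outer end of the gene, chr4:110351912-110352161, held 0. Any of the 3 motifs was in 6 of the 13 windows (46.2%), against 28.1% of all 32851 windows of this length in the table. Of the 13 windows 4 were alternative starts of Elavl4, and some of them overlap, so the windows are not independent. None of the 3 motifs was found in the windows of Tubb3, Map2, Dcx or Crmp1, which says only that these letters are not there.

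Tubb3 (chr8:123411424-123422015, plus strand; positions of genes are from GENCODE M21 on mm10) had the steepest slope of the 10 in the forebrain. Its level in forebrain neuronal cells was 2.66 and 1.96 in the 2 E9.5 embryos, 4.69 and 6.59 at E10.5, and 7.24 and 6.94 at E11.5. In the hindbrain it was 4.49 and 3.93, then 7.23 and 5.24, then 7.31 and 6.79. In both organs the E9.5 embryos lay below all later ones, and the hindbrain E9.5 embryos lay above those of the forebrain. The slope was 2.39 per day (SE 0.32) in the forebrain and 1.42 per day (SE 0.32) in the hindbrain, with Benjamini-Hochberg adjusted p = 0.000521 and 0.0237 (limma). The share of cells expressing Tubb3 went from 67 of 88 forebrain cells at E9.5 to 60 of 60 at E11.5, while in the hindbrain it was already 72 of 75 at E9.5, a share not above that in hematopoietic cells of the hindbrain (17 of 17).

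**Figure D1:**
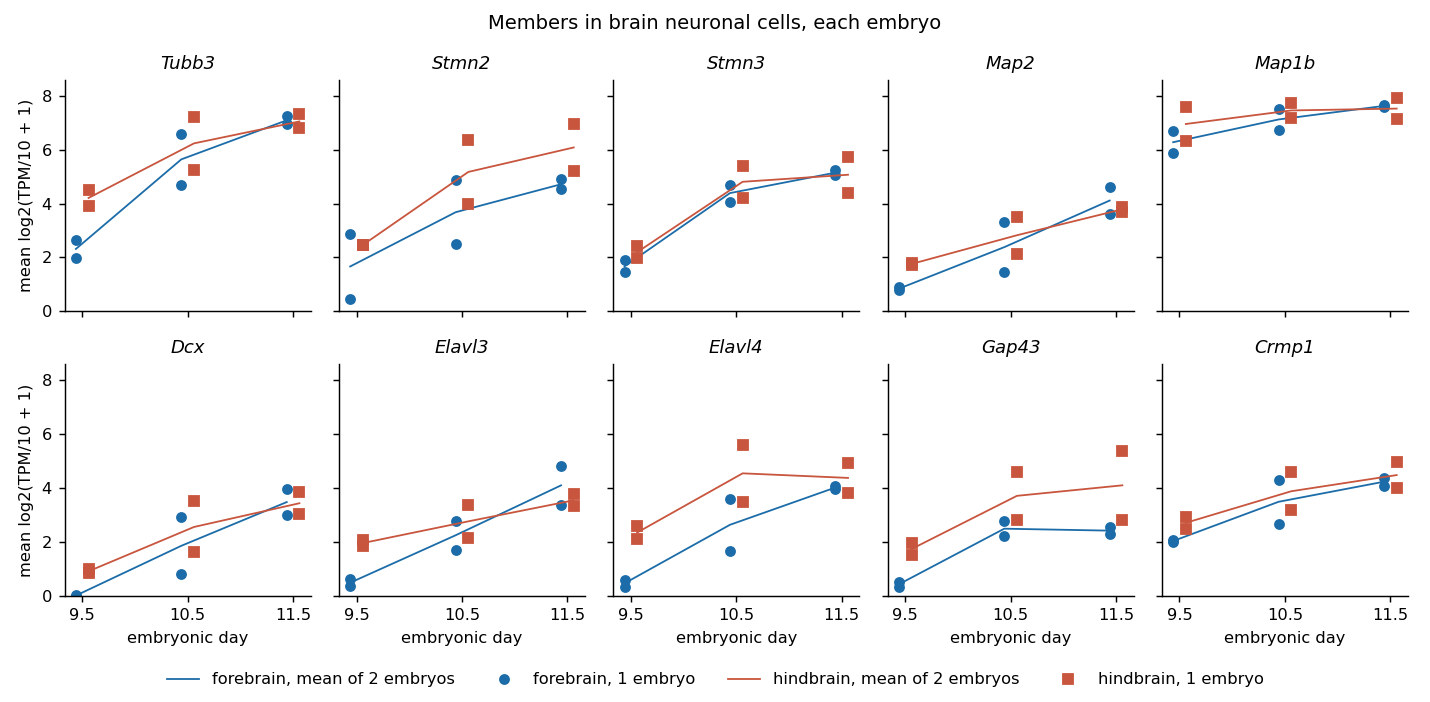
Level of each of the 10 genes in brain neuronal cells, mean log2(TPM/10 + 1) on the vertical axis against embryonic day; each point is 1 embryo, lines join the means of 2 embryos, blue circles are forebrain and red squares hindbrain. Map1b starts near 6 to 7 and climbs least, Dcx starts at 0 in the forebrain, and the 2 E10.5 embryos differ from each other in opposite ways in the 2 organs.

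Among the microtubule-binding genes, Dcx (chrX:143855842-143933311, minus strand) was the one closest to absent at the start. Its forebrain levels were 0.00 and 0.01 at E9.5, 0.79 and 2.92 at E10.5, and 3.97 and 2.99 at E11.5. Its hindbrain levels were 0.83 and 0.98, then 3.50 and 1.61, then 3.85 and 3.02. No forebrain E9.5 cell expressed Dcx, 0 of 88, which allows a share of up to 3.41%, whereas 19 of 75 hindbrain E9.5 cells did (25.3%). By E11.5 the shares were 49 of 60 in the forebrain and 42 of 51 in the hindbrain. The slopes were 1.74 (SE 0.31) and 1.26 (SE 0.31) per day, with adjusted p = 0.00214 and 0.0312 (limma).

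Map2 (chr1:66175273-66442583, plus strand), a marker of dendrites in older neurons, stood at 0.78 and 0.89 in the forebrain at E9.5, at 1.45 and 3.31 at E10.5, and at 4.61 and 3.61 at E11.5. Hindbrain Map2 was 1.78 and 1.73, then 3.51 and 2.13, then 3.69 and 3.88. No E9.5 embryo reached the level of a later one in its organ, and the slopes were 1.64 (SE 0.26) and 1.02 (SE 0.26) per day with adjusted p = 0.00103 and 0.0347 (limma). Map1b (chr13:99421446-99516540, minus strand), which acts earlier in axon growth, behaved differently in level: every one of the 367 cells expressed it. Forebrain Map1b was 5.88 and 6.68 at E9.5, 6.74 and 7.51 at E10.5, and 7.66 and 7.60 at E11.5, and hindbrain Map1b was 6.33 and 7.58, then 7.73 and 7.19, then 7.91 and 7.15. The hindbrain stages overlapped. The forebrain slope of 0.67 per day (SE 0.19, adjusted p = 0.0252, limma) was called and the hindbrain slope of 0.29 (SE 0.19, adjusted p = 0.408) was not. The forebrain call of Map1b was lost in 8 of 16 alternatives, among them edgeR (adjusted p = 0.0677), thinned cells and leaving out E9.5 embryo 1 (0.0952), E11.5 embryo 1 (0.0833) or E11.5 embryo 2 (0.0557), and its adjusted p ran from 0.0108 to 0.527 over the 16.

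The 2 stathmins differed at E9.5. Stmn2 (chr3:8509360-8561606, plus strand) was 2.87 in the forebrain of E9.5 embryo 1 but 0.45 in that of embryo 2, then 2.50 and 4.86 at E10.5 and 4.91 and 4.52 at E11.5. This was the only one of the 10 genes whose forebrain E9.5 and later embryos overlapped. Hindbrain Stmn2 was 2.46 in both E9.5 embryos, then 6.37 and 3.98, then 6.96 and 5.21. It was expressed by 32 of 75 hindbrain cells at E9.5 and by all 57 and 51 cells of the later stages. Stmn3 (chr2:181306459-181314500, minus strand) was 1.44 and 1.88, then 4.07 and 4.70, then 5.05 and 5.25 in the forebrain, and 1.96 and 2.42, then 5.41 and 4.21, then 5.73 and 4.41 in the hindbrain. Most of the Stmn3 difference lay between E9.5 and E10.5, 2.72 in the forebrain and 2.61 in the hindbrain, against 0.76 and 0.26 between E10.5 and E11.5. The slopes were 1.53 (SE 0.44) and 1.81 (SE 0.44) for Stmn2 and 1.74 (SE 0.31) and 1.44 (SE 0.31) for Stmn3 in forebrain and hindbrain, with adjusted p = 0.0280, 0.0311, 0.00204 and 0.0192 (limma). The forebrain call of Stmn2 was lost in 7 of 16 alternatives, among them edgeR (adjusted p = 0.142), thinned cells and leaving out E9.5 embryo 2 (0.269) or E11.5 embryo 1 (0.101), and its adjusted p ran from 0.00892 to 0.648 over the 16.

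Of the RNA-binding pair, Elavl3 (chr9:22015005-22052023, minus strand) was 0.61 and 0.35 in the forebrain at E9.5, 1.71 and 2.78 at E10.5, and 4.83 and 3.37 at E11.5. In the hindbrain Elavl3 was 2.05 and 1.86, then 3.37 and 2.15, then 3.77 and 3.32. Elavl4 (chr4:110203722-110351909, minus strand) was 0.58 and 0.34, then 1.67 and 3.60, then 4.06 and 3.98 in the forebrain. Both genes thus began low in the forebrain, with 19 and 18 of 88 cells expressing them, and higher in the hindbrain, with 34 and 41 of 75 cells. Hindbrain Elavl4 was 2.12 and 2.58 at E9.5, 5.61 and 3.48 at E10.5, and 4.92 and 3.83 at E11.5. The forebrain slopes of 1.81 (SE 0.23) and 1.78 (SE 0.35) were called with adjusted p = 0.000387 and 0.00362, and the hindbrain slopes of 0.79 (SE 0.23) and 1.01 (SE 0.35) were not, with adjusted p = 0.0610 and 0.100 (limma).

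Gap43 (chr16:42248442-42340651, minus strand) went from 0.33 and 0.52 at E9.5 to 2.21 and 2.77 at E10.5 in the forebrain, and stood at 2.55 and 2.28 at E11.5. In the hindbrain it was 1.50 and 1.97, then 4.61 and 2.81, then 5.38 and 2.82. The spread between the 2 hindbrain embryos of E11.5 (SD 1.81) was the widest of the 10 genes at any hindbrain stage. The slopes of 1.0 (SE 0.37) and 1.18 (SE 0.37) missed the threshold, with adjusted p = 0.0772 and 0.0717 (limma). Crmp1 (chr5:37241940-37292133, plus strand) was 2.06 and 2.01, then 2.68 and 4.30, then 4.39 and 4.09 in the forebrain and 2.93 and 2.48, then 4.58 and 3.18, then 4.96 and 4.00 in the hindbrain. It was already expressed by 72 of 88 forebrain and 58 of 75 hindbrain cells at E9.5. Crmp1 was called in the forebrain at 1.10 per day (SE 0.25, adjusted p = 0.00838) and not in the hindbrain at 0.89 (SE 0.25, adjusted p = 0.0539, limma), and its forebrain call was lost without E9.5 embryo 1 (adjusted p = 0.0515) or E9.5 embryo 2 (0.0621). Crmp1 overlaps Evc on the opposite strand, and the strand setting of the counting is not given in the sources used here, so reads of the 2 genes could not be separated.

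Counted together, 9 of the 10 genes rose with day in the forebrain and 5 in the hindbrain, and none fell. Of 14195 genes tested, 1.70% were called higher in the forebrain and 0.338% in the hindbrain. The median slope of the 10 genes was 1.69 per day in the forebrain and 1.10 in the hindbrain, against -0.04 and -0.05 over all genes. In each organ 9 of the 10 genes had both E9.5 embryos below all 4 later ones, a pattern held by 6.32% of all genes in the forebrain and 6.16% in the hindbrain. Between E10.5 and E11.5, where the sequencer was the same, the median difference was 1.21 in the forebrain and 0.69 in the hindbrain, and 9 of the 10 genes were higher at E11.5 in each, the exceptions being Gap43 in the forebrain (-0.07) and Elavl4 in the hindbrain (-0.17). The share of all genes higher at E11.5 was not counted. The forebrain E10.5 mean includes the 9 cells of embryo 1. Against E10.5 embryo 2 alone, the forebrain E11.5 means of Stmn2 (4.72, against 4.86), Gap43 (2.42, against 2.77) and Crmp1 (4.24, against 4.30) were lower, and those of the remaining genes higher. With only those 2 stages no slope of the 10 was called in either organ, beside 0 of all genes in the forebrain and 8 in the hindbrain. Over all stages the hindbrain count of 5 fell to 0 without E11.5 embryo 1, without E9.5 embryo 1 or without E9.5 embryo 2, to 3 without E11.5 embryo 2, and rose to 9 without E10.5 embryo 1. By edgeR on summed UMIs the forebrain count was 8 and the hindbrain count 0, beside 415 and 5 of all genes called higher.

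**Figure D2:**
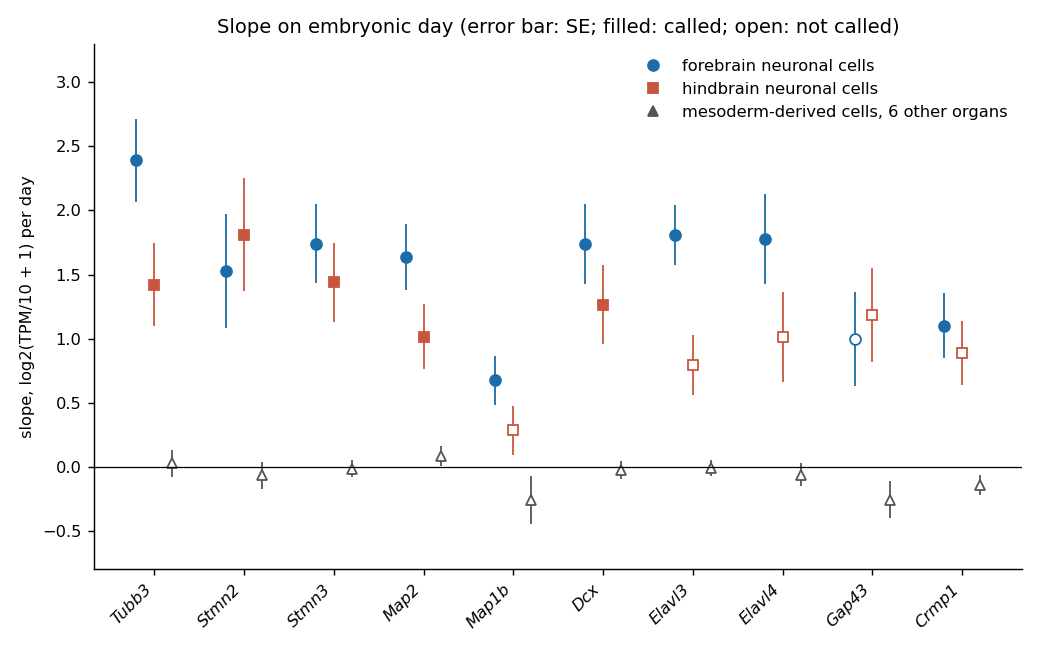
Slope on embryonic day of each of the 10 genes, in log2(TPM/10 + 1) per day, with its SE; filled symbols were called at an adjusted p of 0.05 and a slope of at least 0.5, open symbols were not. All forebrain and hindbrain slopes lie above 0, while the slopes in mesoderm-derived cells of the 6 other organs lie between -0.26 and 0.08.

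Whether the 2 brain regions differed was tested by the difference of slopes and by the difference at each stage. No gene of the 10 passed for the difference of slopes, nor did any of the 14195 genes tested (0% by limma, 995 at an unadjusted p under 0.05 and 2 called by edgeR). The largest difference among the 10 and the only 1 with an unadjusted p under 0.05 was that of Elavl3, 1.01 per day steeper in the forebrain (SE 0.33, unadjusted p = 0.00759, adjusted p = 0.577). At E9.5 all 10 estimates were lower in the forebrain, with a median of -0.91, from -0.53 for Stmn3 to -1.90 for Tubb3, and both forebrain embryos lay below both hindbrain embryos in 8 of the 10 genes, as in 25.2% of all genes. None of the 10 was called by limma (0.430% of all genes were), with 3 at an unadjusted p under 0.05 (Tubb3, Elavl3 and Elavl4) and adjusted p = 0.280 for Tubb3, whereas edgeR on summed UMIs called 5 lower in the forebrain, Tubb3, Dcx, Elavl3, Elavl4 and Gap43. Over all genes edgeR called 105 lower in the forebrain there. At E10.5 and E11.5 none was called by limma, beside 0.261% and 0.183% of all genes, or by edgeR, beside 27 and 37 of all genes. At each of these stages 1 gene had an unadjusted p under 0.05 in limma, and the lowest estimates were -1.91 for Elavl4 at E10.5 and -1.68 for Gap43 at E11.5.

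Within single embryos the order of the regions turned. All 10 genes were lower in the forebrain than in the hindbrain of E10.5 embryo 1, by a median of 2.23, and only Gap43 was lower in the forebrain of E10.5 embryo 2, by 0.04. The E10.5 embryo 1 forebrain value rests on 9 cells, and mesenchymal markers (5 of them, mean 1.07) were highest in that set, against 0.03 to 0.49 in the other sets; their part was not tested. In the E9.5 embryos 9 and 10 genes were lower in the forebrain, Stmn2 of embryo 1 being the exception, and in the E11.5 embryos 7 and 4 were. Without E10.5 embryo 1, 9 of the 10 differences at E10.5 were higher in the forebrain, from 0.12 for Elavl4 to 1.35 for Tubb3. No direction at E10.5 therefore holds in both embryos for those 9 genes.

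Cell by cell, few early cells carried the whole set of genes. All 10 were expressed in 0 of 88 forebrain cells at E9.5, which allows a share of up to 3.41%, and in 14 of 75 hindbrain cells (18.7%), 7 in each embryo. At E10.5 the counts were 12 of 36 and 32 of 57, and at E11.5 they were 29 of 60 and 27 of 51. Conversely 64 of 88 forebrain and 44 of 75 hindbrain cells at E9.5 expressed 5 or fewer of the 10, against 3 of 60 and 2 of 51 at E11.5. At E9.5, 26 of 75 hindbrain cells were at 8 or more and 5 at 6 or 7, and 3 and 21 of 88 forebrain cells were. In cells thinned to 100000 UMIs, where a gene counts as on from 1 UMI, the E9.5 counts of cells with all 10 were 0 of 87 in the forebrain and 13 of 73 in the hindbrain. In thinned cells 6 or 7 genes were expressed by 11 of 44 and 8 of 43 cells of the forebrain E9.5 embryos and by 8 of 41 and 9 of 32 of the hindbrain ones, so the gap between the regions at 6 or 7 genes was not seen at equal depth. These limits cover counting error only.

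**Figure D3:**
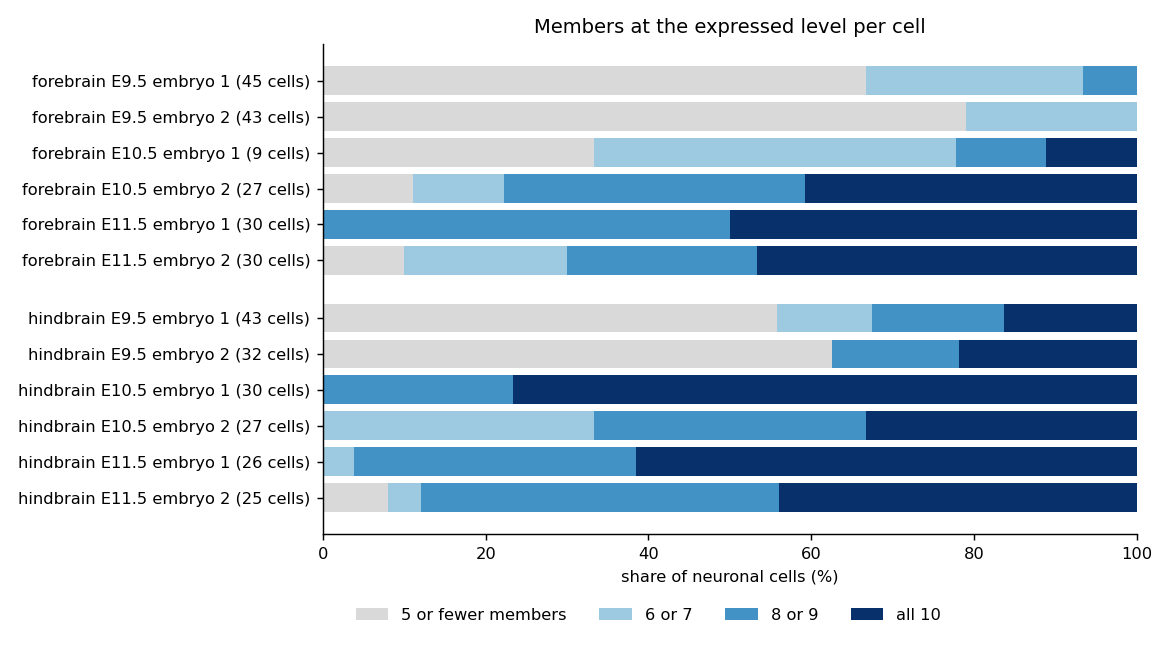
Share of neuronal cells, in percent on the horizontal axis, that expressed 5 or fewer, 6 or 7, 8 or 9, or all 10 of the genes, one bar for each organ and embryo with its number of cells. Cells with all 10 are missing from both forebrain E9.5 embryos and make up 16.3% and 21.9% of the hindbrain E9.5 embryos.

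The genes were nested within cells only in part. Over the 367 cells Map1b was expressed in all, Tubb3 in 93.2%, Crmp1 in 88.3%, Stmn3 in 80.7%, Stmn2 in 69.8%, Map2 in 65.7%, Elavl4 in 62.1%, Elavl3 in 58.6%, Gap43 in 56.7% and Dcx in 47.1%. The order was the same when a gene was counted from 1 UMI in the 308 cells that could be thinned. All 173 Dcx cells also expressed Tubb3, and 98.8% of them expressed Stmn3, 97.1% Stmn2, 93.6% Map2 and 81.5% Gap43. Of the 342 Tubb3 cells only 50.6% expressed Dcx. Of the close relatives Elavl3 and Elavl4, 82.3% of Elavl3 cells expressed Elavl4 and 77.6% of Elavl4 cells expressed Elavl3. Among the 208 Gap43 cells, 72.6% expressed Elavl3 and 79.8% Elavl4, although both were on in more cells than Gap43.

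**Figure D4:**
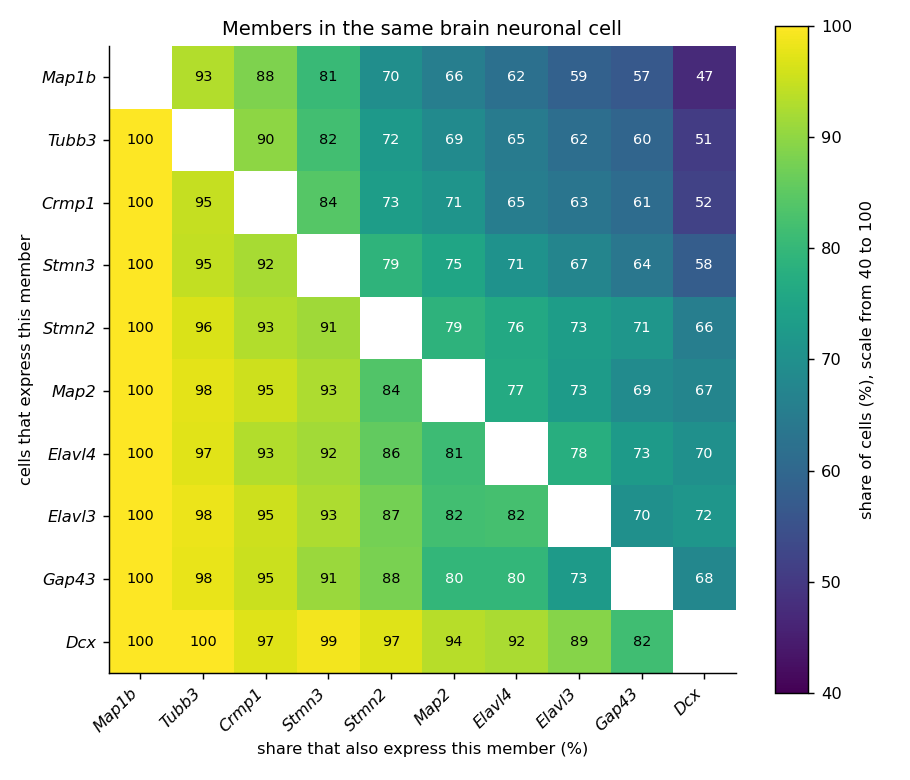
Share, in percent, of the brain neuronal cells expressing the gene of a row that also expressed the gene of a column, with genes in the order of their share over 367 cells and a color scale from 40 to 100. The row of Dcx holds values from 81.5 upward, and the column of Dcx none above 71.6.

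Levels of the 10 genes were correlated across the 367 cells, as a description, since cells of 1 embryo share library, day and depth. The 45 pairs had a Pearson's r from 0.53 (Map2 with Gap43) to 0.83 (Tubb3 with Elavl3), with a median of 0.69. Within a set of 1 organ and embryo the median r of a gene with the mean of the other 9 was 0.72 to 0.87 in 9 of the 11 sets with at least 20 cells. In the 2 forebrain E9.5 sets, where most of the genes were low, it was 0.19 and 0.11. Among the non-members whose level followed the mean of the 10 most closely over the 367 cells, of 14195 genes, were Mllt11 (0.89), Tuba1a (0.89), Tagln3 (0.87), Tmsb10, Stmn1, Rtn1, Rab3a, Tmsb4x and Actg1 (0.77). The mean of 12 proliferation genes ran against it (r = -0.81), as did that of 15 neural progenitor genes (r = -0.63).

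Other genes of the same pathways were read from lists that were drawn up by function, again with forebrain slopes, beside 12.2% of all genes called in either direction. Of 10 other tubulins 3 rose and 5 fell, among them Tuba1a, the main α-tubulin of young neurons (1.66 per day), Tubb2a (1.13), Tubb6 (-1.14) and Tubb4b (-1.0). Of 10 other stathmins and microtubule-associated genes only Stmn1 rose (0.69). Of 6 other doublecortin and CRMP relatives 2 rose, Dpysl3 (1.38) and Dclk1 (0.66). Of 10 other neuronal RNA-binding genes 4 rose, including Celf4 (1.05), Rbfox2 (0.85) and Celf3 (0.74), and the ubiquitous relative Elavl1 fell (-0.75). Growth cone and guidance genes gave 6 rises of 13, with Plxna2 (1.23), Dcc (1.09), Marcks (0.97) and Nrp1 (0.64) among them. None of 5 neurofilament and neuronal intermediate filament genes passed.

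The lists that mark stages of differentiation moved as follows in the forebrain. Of 13 synaptic and vesicle genes 3 rose, Rab3a (1.08), Scg3 (1.08) and Syp (0.53). Of 15 early postmitotic regulators 6 rose, including the transcription factors Neurod1 (1.15), Tbr1 (1.14), St18 (1.14) and Myt1l (0.95). Of 12 proliferation genes 10 fell, led by the replication helicase subunits Mcm5 (-1.43) and Mcm6 (-1.41), Rrm2 (-1.29) and cyclin Ccnb1 (-1.25), and of 15 progenitor genes Id3 (-1.53) and Id2 (-0.86), both inhibitors of basic helix-loop-helix factors, fell. In the hindbrain, with 4.05% of all genes called in either direction, 8 of 12 proliferation genes fell, led by Aurka (-1.20), Id3 (-1.50) and Id2 (-1.30) fell, and Tuba1a (1.04), Ebf1 (0.90) and Ebf3 (0.71) rose, beside falls of Tubb6 (-0.71) and Tuba1b (-0.54). No gene of the stathmin, doublecortin, RNA-binding, growth cone, filament or synaptic lists was called there.

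RNA of these genes was also counted in brain cells that should lack them. Of the 33 brain cells in the study's hematopoietic group (median 369442 UMIs, against 243162 in the brain neuronal cells), 29 expressed Tubb3 (87.9%, mean 2.26) and 29 Map1b, 21 expressed Stmn2 and 20 Stmn3, while Dcx, Elavl3 and Gap43 were expressed in 5, 3 and 5. Outside the brain Tubb3 was expressed in 22 of 213 hematopoietic cells (10.3%), Map1b in 39, and Stmn2, Stmn3, Dcx and Elavl3 in 0, which allows a share of up to 1.41%. In the forebrain 12 of 16 hematopoietic cells expressed Tubb3 (75.0%), close to the 76.1% of forebrain neuronal cells at E9.5. The same held for Stmn2 (43.8%, against 42.0%) and Elavl4 (18.8%, against 20.5%), so these 3 shares do not set the 2 kinds of cell apart. Most of the 16 cells were from later stages, 10 of them from E10.5 embryo 1, so the stages are not matched. By embryo, the Stmn2 share of E9.5 neuronal cells was 64.4% and 18.6%. The source of this RNA was not tested. Dcx was expressed in 1 of the 16 and in no forebrain E9.5 neuronal cell. For Map2, Elavl3 and Gap43 the forebrain E9.5 shares of 31.8%, 21.6% and 21.6% stand beside 18.8%, 0% and 0%, for Stmn3 63.6% beside 31.2%, and for Crmp1 81.8% beside 12.5%. In the hindbrain the 17 hematopoietic cells were deeper (median 686435 UMIs). Of these, 10 were from E9.5 embryo 2 and the others from later stages, so the stages are not matched here either. Tubb3 (100%, against 96.0% of neuronal cells at E9.5), Stmn2 (82.4%, against 42.7%) and Stmn3 (88.2%, against 54.7%) had no higher share in neuronal cells. Nor had Map1b, which every cell of both kinds expressed. Mean levels were higher in neuronal cells: Map1b was 3.46 in hematopoietic cells, against 6.33 and 7.58 in neuronal cells of the E9.5 embryos, and Tubb3 2.67, against 4.49 and 3.93. Stmn2 (2.31, against 2.46 in both) and Stmn3 (1.78, against 1.96 and 2.42) differed less. Hindbrain Dcx, at 23.5% against 25.3%, was close to it, whereas Map2 (17.6%, against 53.3%), Elavl3 (17.6%, against 45.3%), Elavl4 (35.3%, against 54.7%), Gap43 (5 of 17, against 30 of 75) and Crmp1 (23.5%, against 77.3%) had the higher share in neuronal cells. The reverse also occurred: of 7 erythroid markers the embryonic globins Hba-x, Hbb-y and Hbb-bh1 were expressed in 79.6 to 80.9% of the 367 neuronal cells, Klf1 and Gata1 in 6.81% and 1.63% and Hba-a1 in none. The mean of the 7 was 0.31 and 0.80 in the forebrain E9.5 embryos against 1.79 to 3.64 later, and 0.29 and 2.69 in the hindbrain E9.5 embryos against 2.25 to 2.81 later; it moves with day like the 10 genes in the forebrain, and its part in the slopes was not tested.

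Outside the brain, the 10 genes were lower by organ. With all kept cells of an organ pooled whatever their group, every one of the 10 was higher in the brain than in the mean of the other 6 organs, beside 1.13% of 17427 genes called higher. The difference ran from 1.35 for Gap43 (SE 0.25, adjusted p = 4.37e-05) to 4.55 for Tubb3 (SE 0.33, adjusted p = 1.59e-15, limma). At least 8 of the 10 genes were expressed in 198 of 367 brain neuronal cells and in 0 of 853 mesoderm-derived, 0 of 304 epithelial and 0 of 213 hematopoietic cells of other organs, and in 4 of 33 brain hematopoietic cells. Since the study's groups were made by clustering these cells, the counts by group are a description.

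In E9.5 embryo 3 the lung was sampled with the liver, and the skin with intestine and somite, and the organ of each of its cells was read from the cell's name. Of the 10 genes 3 differed among organs within mesoderm-derived cells (limma F-test, at least 1 between the highest and lowest organ), beside 10.8% of 15803 genes. Map1b was 6.51 ± 1.30 (SD, n = 3 embryos) in the liver, all at E9.5, where its values were 7.31, 7.20 and 5.01, and 4.38 ± 1.20 (n = 6) in the heart, 4.17 ± 0.59 (n = 7) in somites, 3.97 ± 0.64 (n = 6) in skin, 3.05 ± 1.0 (n = 6) in the lung and 2.91 ± 1.09 (n = 7) in the intestine (adjusted p = 0.000457). From the heart down to the intestine, neighbours in this order differed by less than the larger of their SDs. Gap43 was highest in skin mesenchyme, 2.83 ± 0.97 (n = 6, from 1.46 to 4.17), against 1.07 in the heart, 1.04 in the liver, 0.95 in somites, 0.45 in the lung and 0.28 in the intestine (adjusted p = 6.60e-07). Tubb3 was highest in the heart, 1.16 ± 0.42 (n = 6), and lowest in the intestine, 0.04 (adjusted p = 0.00422). Among epithelial cells, Map1b was highest in the intestine, 5.09 ± 1.50, where the 3 E9.5 embryos held 6.90, 6.82 and 6.09 and the 4 later ones 3.46 to 4.82. The other 7 differed by 0.29 or less among the mesoderm-derived organ means, but were also expressed in some non-neuronal cells, for example Crmp1 in 41 of 236 heart and 38 of 199 somite mesoderm-derived cells and in 19 of 81 epithelial cells of the skin, and Stmn2 and Map2 each in 21 of 116 epithelial cells of the intestine.

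**Figure D5:**
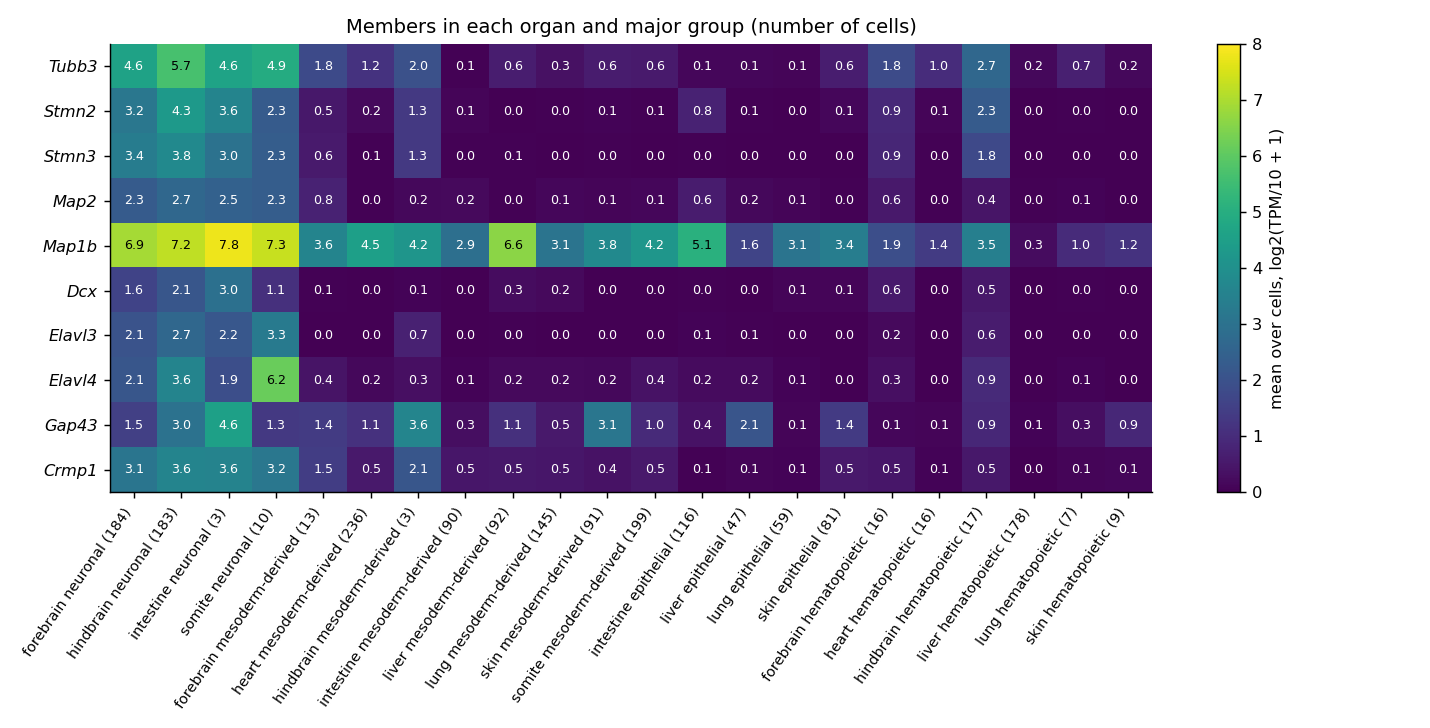
Mean over cells of log2(TPM/10 + 1) for each of the 10 genes (rows) in each organ and major group with at least 3 cells (columns, with the number of cells), colored from 0 to 8. Map1b is above 1 in every mesoderm-derived and epithelial column, Gap43 stands at 3.1 in skin mesoderm-derived cells, and Stmn3, Dcx and Elavl3 are near 0 outside the brain and the neuronal group.

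With day, none of the 10 genes was called in mesoderm-derived cells by limma (0.730% of 17114 genes were) or edgeR (266 of all genes were), none had an unadjusted p under 0.05 in limma, and the slopes lay between -0.26 for Map1b and 0.08 for Map2. The difference of slopes between brain neuronal and mesoderm-derived cells was called for 9 of the 10 genes by limma, all steeper in neuronal cells, beside 0.754% of genes called in that direction, and by edgeR for Stmn3 alone, beside 14 of all genes in that direction. Tubb3 differed by 1.88 per day (SE 0.21, adjusted p = 4.07e-10) and Map1b, the gene not called, by 0.74 (SE 0.37, adjusted p = 0.352).

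Outside the brain 15 cells were in the neuronal group, 10 of them from the somites of E9.5 embryo 2, 3 from the intestine and 2 from the heart. The 10 somite cells all expressed Map1b and Elavl4, 9 expressed Tubb3 and Elavl3, 5 Stmn2, 4 Dcx and 3 Gap43. Their mean Elavl4 was 6.19 (SD over cells 1.63), against 2.58 in the hindbrain and 0.34 in the forebrain neuronal cells of the same embryo and 0.49 in its 26 somite mesoderm-derived cells. Isl1, a marker of motor and sensory neurons, was expressed in 6 of the 10, and Sox10 and Chat in none. An intestinal cell of E10.5 embryo 1 expressed all 10 genes, with Gap43 at 7.46. All somite cells came from 1 embryo, so no spread over embryos can be given.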

How the data were processed

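Single cells were sampled from 8 organs and libraries were made with a modified STRT protocol with cell barcodes and UMIs. The authors processed reads with CASAVA 1.8, TopHat2 2.0.12 (mm10) and HTSeq (version not given in the sources used here) and deposited UMIs of a gene per 1000000 UMIs of a cell (a CPM scale named TPM). Of the 11760022 values above 0, 100.0% were whole UMIs within 0.05. Of 1819 cells kept by the study, 14 columns identical to another cell were dropped. Cell groups and UMI totals are those of the study's cell table. Doublets were not called.

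Embryos were the replicates. At E10.5 and E11.5 the cells of both embryos of an organ were in the same sample, and the embryo of each cell was read from the cell's name. Means over at least 3 cells of log2(TPM/10 + 1), the pseudocount being 1, were fitted with limma 3.58.1 (R 4.3.3; eBayes with trend) on genes expressed in at least 3 of the cells compared, without a block; a gene was called at a Benjamini-Hochberg adjusted p under 0.05 and a log2 difference of at least 1 (slopes 0.5 per day). edgeR 4.0.16 on recovered UMIs summed per embryo, thinning to 100000 UMIs, other pseudocounts and filters, and leaving out embryos were alternatives. The fits of the brain slopes and of their difference were run on simulated data with a known forebrain slope and an assumed spread between embryos. The other comparisons were not simulated. Forebrain and hindbrain with the same number came from the same embryo; correlations of their deviations from the mean of embryos ran from -0.05 to 0.71. All 10 genes were named in every comparison, and of each list up to 4 called genes with the largest slopes, plus the 10 genes most correlated with the mean; some of the listed genes are not reported here. The genes and lists were chosen with earlier results of these data known. Promoters are from RefSeq (GRCm38.p6). Depth ranged from 24366 to 2111179 UMIs per brain neuronal cell.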

Additional observations from a re-analysis of the deposited data

Results flagged for a closer look

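Outside the brain, embryo means of 88 combinations of gene, group and organ with 4 to 10 embryos were examined for 1 embryo far from the others. Chance gives about 1 in 20 for normally spread values only. Many of these means were at or near 0, so that rate does not apply. Of the 88 combinations 27 stood out, and in 24 of the 27 the highest embryo was itself under the expressed level of 1. For the 3 genes whose levels are given by organ, 4 did: Tubb3 in epithelial cells of the liver was highest in E9.5 embryo 1 (0.49), Tubb3 in epithelial cells of the lung in E11.5 embryo 2 (0.78, from 3 cells), Gap43 in epithelial cells of the lung in E9.5 embryo 2 (0.88, from 3 cells), and Map1b in epithelial cells of the skin was lowest in E11.5 embryo 1 (1.80, against 3.46 in the nearest embryo).

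The slope on day differed between brain neuronal and mesoderm-derived cells by the test of the difference for 9 genes (limma, log2 per day): Tubb3 by 1.88, Stmn2 by 1.74, Stmn3 by 1.61, Dcx by 1.52, Elavl4 by 1.46, Gap43 by 1.35, Elavl3 by 1.31, Map2 by 1.24 and Crmp1 by 1.14, all steeper in neuronal cells.

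Of the 15 neuronal cells outside the brain, which entered the comparison of all kept cells by organ and no comparison of neuronal cells, 6 expressed 8 or more of the 10 genes, 4 from the somites and 2 from the intestine.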

How the results depend on the processing

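Over 1530 repeats of a value for 1 of the 10 genes, 1388 kept direction and side of the threshold, 69 lost a call, 31 gained one and 42 turned direction. The brain against other organs kept 10 calls under every alternative run. Blocking by embryo (pairing forebrain and hindbrain) left all 10 counts of called genes of the 10 as they were, for example 9 in the forebrain and 5 in the hindbrain. Unless a value shows it, the cause of a change was not tested.

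Using E10.5 and E11.5 only, 0 genes were called in the forebrain, 0 in the hindbrain. Leaving out 1 embryo gave 7 to 10 forebrain and 0 to 9 hindbrain calls. The hindbrain count of 5 became 8 with log2(TPM + 1), 9 with weights by number of cells, 2 with all kept cells, and 0 with no gene filter or with edgeR. At E9.5 the count of 0 became 5 with edgeR, 1 with weights and 0 to 1 without an embryo; at E10.5 it was 0 to 3 without an embryo. The neuronal minus mesoderm-derived slopes fell from 9 calls to 1 with edgeR.

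Reversed slopes were -0.073 for Gap43 (forebrain) and -0.17 for Elavl4 (hindbrain) using E10.5 and E11.5 only. The slope differences of Stmn2 and Gap43 became 0.46 and 0.87 with edgeR, and that of Stmn2 0.13 with the 2 later stages. The E11.5 differences became -0.52 for Tubb3, -0.80 for Stmn3, -0.20 for Map2, -0.37 for Map1b and -0.12 for Dcx with edgeR; -0.22, -0.36, -0.19, -0.16 and -0.43 for the same genes with thinned cells; -0.016 for Dcx with log2(TPM + 1); and 0.050 for Crmp1 with all kept cells. The mesoderm-derived slope of Tubb3 became -0.022 with at least 5 cells per mean and -0.033 with weights.
Leaving out 1 embryo at a time, the hindbrain slope of Map1b ran from -0.012 to 0.52, the slope differences of Gap43, Stmn3 and Stmn2 from -0.64 to 0.34, -0.049 to 0.60 and -0.74 to 0.30, the E9.5 difference of Stmn2 from -2.01 to 0.41, and the mesoderm-derived slope of Tubb3 from -0.086 to 0.14. The E10.5 differences ran from -2.54 to 1.35 (Tubb3), -3.87 to 0.88 (Stmn2), -1.33 to 0.49 (Stmn3), -2.06 to 1.17 (Map2), -0.99 to 0.32 (Map1b), -2.71 to 1.31 (Dcx), -1.66 to 0.63 (Elavl3), -3.94 to 0.12 (Elavl4) and -1.90 to 1.12 (Crmp1). The E11.5 differences ran from -0.27 to 0.92 (Map2), -0.039 to 0.13 (Dcx), -0.86 to 0.15 (Elavl4), -0.58 to 0.084 (Crmp1), -0.064 to 0.15 (Tubb3), -0.68 to 0.84 (Stmn3) and -0.25 to 0.45 (Map1b).

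Over all genes, forebrain slopes gave 1727 calls (241 higher, 1486 lower), against 2881 with log2(TPM + 1), 947 thinned (136 and 811), 860 with edgeR (415 and 445) and 0 with the 2 later stages. Hindbrain slopes gave 575, against 1234, 265, 36 and 8, and 239 with no gene filter.
Leaving out 1 embryo gave 695 to 1811 and 4 to 684. The other counts, with their range over all alternatives, were 0 (0 to 6) for the slope difference, 61 (8 to 180) at E9.5, 37 (7 to 177) at E10.5, 26 (4 to 72) at E11.5, 371 (335 to 3075) for brain against other organs, 1713 (1433 to 4063) among mesoderm-derived organs, 125 (44 to 954) for the mesoderm-derived slope and 324 (55 to 585) for its difference from the neuronal one. With edgeR the split of higher and lower calls moved to 15 and 105 from 20 and 41 at E9.5, to 15 and 12 from 9 and 28 at E10.5, to 16 and 21 from 6 and 20 at E11.5, and to 14 and 41 from 129 and 195 for the last difference.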
